A study of Rattus norvegicus with 4 samples.

Results

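The 10 genes described here encode parts of the desmosome plaque and its plakin relatives: desmoplakin (Dsp), plakoglobin (Jup), the plakophilins Pkp1, Pkp2, Pkp3 and Pkp4, envoplakin (Evpl), periplakin (Ppl), the membrane protein Perp and the cadherin desmocollin 1 (Dsc1). They were chosen by gene symbol, with earlier results of the same libraries known, and each matched 1 of the 54532 gene rows. RNA-seq was made from ear skin of 2 Sprague Dawley (SD) rats 3 days after their ears were injected with an adeno-associated virus (AAV), a viral carrier of genes. In each rat 1 ear received AAV-Fgf7 (labelled Fgf7 overexpression), a vector for fibroblast growth factor 7, a mesenchymal protein that acts on epithelial cells, and the other ear received control virus (labelled wt). Each group thus held 2 libraries, 1 from each rat, and both groups had been injected with virus. The sources used here give neither the age and sex of the rats nor the promoter of the vector. The comparison asked how skin transcripts differed where Fgf7 was delivered, in a study of re-epithelialization.

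Desmosomes are junctions that rivet epithelial cells together. Their cadherins, desmogleins and desmocollins, bind across the gap between cells. Inside the cell the cadherin tails hold plakoglobin and plakophilins, which are armadillo-repeat proteins, and desmoplakin ties this plaque to keratin filaments. Envoplakin and periplakin are plakins that help to build the cornified envelope of the outer epidermis. PKP1 and PKP3 are the plakophilins of stratified epithelia. PKP2 and PKP4 are found more widely, PKP2 also in the heart and PKP4 also at adherens junctions.

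The libraries held 1299136 to 1601321 counts, and 6370 genes had enough counts to be tested. The rows carry mouse Ensembl identifiers and mouse gene models although the animals were rats, so a gene may have been counted in part, and levels of different genes were compared only per length and with that limit. Fgf7 itself, the check of the labels, stood at 321 and 989 CPM (counts relative to the library's TMM-scaled total) in the AAV-Fgf7 ears of rats 1 and 2, against 71.4 and 73.2 CPM in their control ears. The virus transcript and the animal's own were counted together. Markers of other tissues differed widely within each group. Hair follicle markers (11 of 13 with a count, Krt35 at 0 and Krt85 without a row) summed to 4690 and 251 CPM in AAV-Fgf7 ears and 67.6 and 1521 CPM in control ears. Skeletal muscle markers (11 of 12, Tnnc2 at 0) summed to 27590.1 and 13588 CPM in AAV-Fgf7 ears and 12800.1 and 51985 CPM in control ears.

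Of the plakophilins, the epithelial Pkp1 and Pkp3 stood higher in both AAV-Fgf7 ears than in both control ears, while Pkp4, of the widely expressed kind, stood slightly lower in both. The other widely expressed one, Pkp2, had 13 counts in all. The upstream sequences of Pkp1 and Pkp4 are shown because these are the most abundant plakophilins of each class. They are the 250 bases before the start site in RefSeq on the rat assembly GRCr8, where Pkp1 lies at chr13:49909163-49909412 on the minus strand and Pkp4 at chr3:64040745-64040994 on the plus strand. Capitals mark the GC box, spelled GGGCGG and bound by Sp1-type factors. They also mark the CACCC box, bound by Krüppel-like factors and spelled as its name. The last motif in capitals is the CCAAT box, bound by NF-Y. Each was searched on both strands, and some stretches in capitals hold overlapping motifs.
Pkp1: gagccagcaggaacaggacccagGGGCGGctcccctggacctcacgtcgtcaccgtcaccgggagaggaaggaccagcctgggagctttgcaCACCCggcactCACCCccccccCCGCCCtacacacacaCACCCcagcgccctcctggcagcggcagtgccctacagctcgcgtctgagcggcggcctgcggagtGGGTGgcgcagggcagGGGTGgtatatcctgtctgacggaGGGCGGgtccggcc
Pkp4: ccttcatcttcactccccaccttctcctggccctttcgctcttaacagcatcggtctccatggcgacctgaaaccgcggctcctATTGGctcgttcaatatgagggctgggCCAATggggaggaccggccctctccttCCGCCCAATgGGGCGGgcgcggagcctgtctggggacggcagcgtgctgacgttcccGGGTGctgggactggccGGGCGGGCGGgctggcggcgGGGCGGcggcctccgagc

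Both sequences were rich in G and C (71.2% for Pkp1 and 68.8% for Pkp4). The Pkp1 sequence held 3 GC boxes, 5 CACCC boxes and 0 CCAAT boxes. That of Pkp4 held 5 GC boxes, 1 CACCC box and 3 CCAAT boxes. Among 33469 rat windows of the same length, 30.5% held a GC box, 49.2% a CACCC box and 34.0% a CCAAT box. Windows of 7 members were in the table, those of Dsp, Jup, Pkp1, Pkp4, Ppl, Perp and Dsc1. A GC box was present in 6 of the 7, a CACCC box in 7 of the 7, and a CCAAT box in that of Pkp4 alone. The TATA box letters TATAAA occurred in 0 of the 7, against 12.9% of all windows. The AP-1 letters TGANTCA occurred in Perp alone (6.34% of all windows), and the Grainyhead letters AACCGG in Ppl alone (5.67%). These matches describe letters in a window and say nothing of whether a factor binds there.

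Pkp1, the plakophilin most abundant in these libraries, stood at 432 and 681 CPM in AAV-Fgf7 ears of rats 1 and 2, against 291 and 269 CPM in control ears. The ratio of AAV-Fgf7 to control ear was 1.49 in rat 1 and 2.53 in rat 2. The groups did not overlap, and the AAV-Fgf7 ear of rat 2 was the highest library. Its log2 fold change was 0.99 (SE 0.26), and 0.63 with the AAV-Fgf7 ear of rat 2 left out. Pkp3 stood at 89.0 and 72.7 CPM in AAV-Fgf7 ears, against 23.5 and 43.9 CPM in control ears. The groups were again separate, but here rat 1 showed the larger contrast, with a ratio of 3.78 against 1.66 in rat 2. The log2 fold change of Pkp3 was 1.25 (SE 0.37). Within each group Pkp3 was higher in the library with more hair follicle marker, and the part of follicle content in this difference was not tested.

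Pkp4, also called p0071, stood at 93.2 and 94.9 CPM in AAV-Fgf7 ears and 103 and 106 CPM in control ears. The 4 libraries lay close together, with a ratio of 0.903 in rat 1 and 0.891 in rat 2 and a log2 fold change of -0.16 (SE 0.21). Pkp2 had too few counts to be tested. Its raw counts were 7 and 3 in AAV-Fgf7 ears and 0 and 3 in control ears. The ratio of the summed levels was 3.29, with an exact 95% interval of 0.846 to 18.6 for counting error only. No difference was detectable with so few counts.

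**Figure D1:**
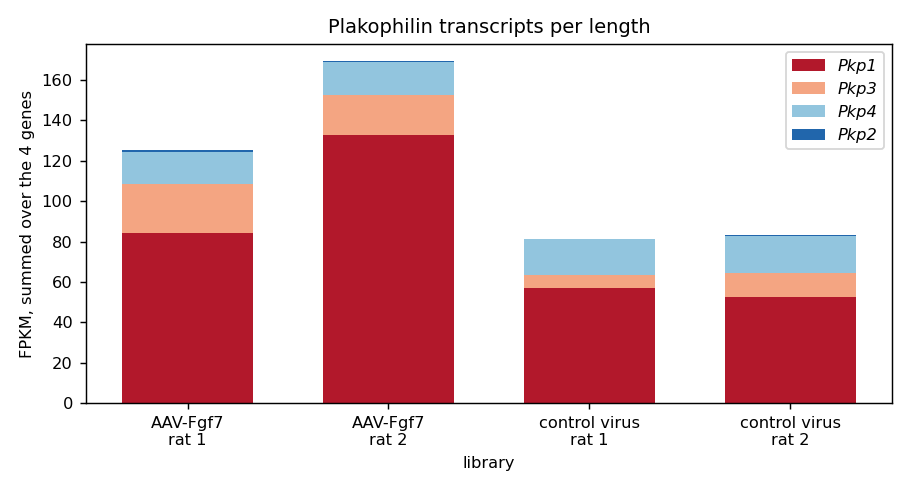
Stacked bars give the FPKM of each plakophilin in each library, Pkp1 at the bottom, then Pkp3, Pkp4 and Pkp2, with AAV-Fgf7 ears at the left. The Pkp4 band keeps nearly the same height (16.0 to 18.3 FPKM) while the total runs from 81.2 to 169 FPKM.

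Per length, in the authors' FPKM values (counts scaled by gene model length and library total), the 4 plakophilins summed to 125 and 169 FPKM in AAV-Fgf7 ears and 81.2 and 83.1 FPKM in control ears. Pkp1 and Pkp3 made up 86.5% and 90.1% of this sum in AAV-Fgf7 ears and 78.1% and 77.5% in control ears. The difference of the means was 10.5 percentage points. An exact two-sided permutation test of the share gave p = 0.333. No smaller value is possible with 2 against 2 libraries, so the test could not decide whether the groups differ. The genes were also chosen with earlier results of these libraries known, so the difference in share is a description. Because this share is taken within a library, it does not depend on library scaling. The ratio of Pkp1 to Pkp4 was 5.27 and 8.15 in AAV-Fgf7 ears and 3.20 and 2.87 in control ears. That of Pkp3 to Pkp4 was 1.51 and 1.21 in AAV-Fgf7 ears and 0.360 and 0.651 in control ears. In bulk skin, a larger share of epithelial cells and more RNA per cell cannot be told apart.

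Of the plakins, desmoplakin and periplakin stood higher in both AAV-Fgf7 ears. Dsp, the obligate link to keratin filaments, stood at 534 and 735 CPM in AAV-Fgf7 ears and 362 and 406 CPM in control ears, from raw counts of 756 and 1061 against 477 and 610. The groups did not overlap, and the ratio was 1.47 in rat 1 and 1.81 in rat 2, for a log2 fold change of 0.72 (SE 0.22), or 0.47 with the AAV-Fgf7 ear of rat 2 left out. Ppl stood at 202 and 204 CPM in AAV-Fgf7 ears, against 156 and 140 CPM in control ears. Its log2 fold change of 0.45 (SE 0.19) stood beside 0.72 for Dsp, a difference that was not tested, and its AAV-Fgf7 libraries were close to each other. Evpl, the plakin partner of periplakin, had raw counts of 1 and 0 in AAV-Fgf7 ears and 1 and 1 in control ears. Per length, Evpl stood at 0 to 0.117 FPKM and Ppl at 20.0 to 29.0 FPKM, and the part of the mouse gene models in this gap was not tested.

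Jup encodes plakoglobin, which binds cadherin tails in desmosomes and in adherens junctions. It stood at 37.4 and 42.9 CPM in AAV-Fgf7 ears and 19.7 and 23.3 CPM in control ears, from raw counts of 53 and 62 against 26 and 35. The groups did not overlap, the ratio was 1.90 in rat 1 and 1.84 in rat 2, and the log2 fold change was 0.90 (SE 0.32). The ratios of Jup were thus the most alike between the rats among the members that stood higher. This order rests on the pairing of the ears, and 1 treated library was given to rat 2 only by its number and title.

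Perp encodes a tetraspan membrane protein of desmosomes and is a target of the transcription factor p63 in mouse epidermis. It stood at 15.5 and 28.4 CPM in AAV-Fgf7 ears and 16.7 and 16.6 CPM in control ears. The groups overlapped, since the AAV-Fgf7 ear of rat 1 lay just below both controls. The log2 fold change of 0.40 (SE 0.43) rested on the AAV-Fgf7 ear of rat 2 and was -0.10 without it. Dsc1, the desmocollin of the upper epidermal layers, had 0 counts in every library. A count of 0 allows up to 1.05 CPM in the AAV-Fgf7 ears and 1.06 CPM in the control ears (3 counts over the group, counting error only). Since reads of a rat gene may be lost under a mouse gene model, this does not show that the transcript was absent.

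**Figure D2:**
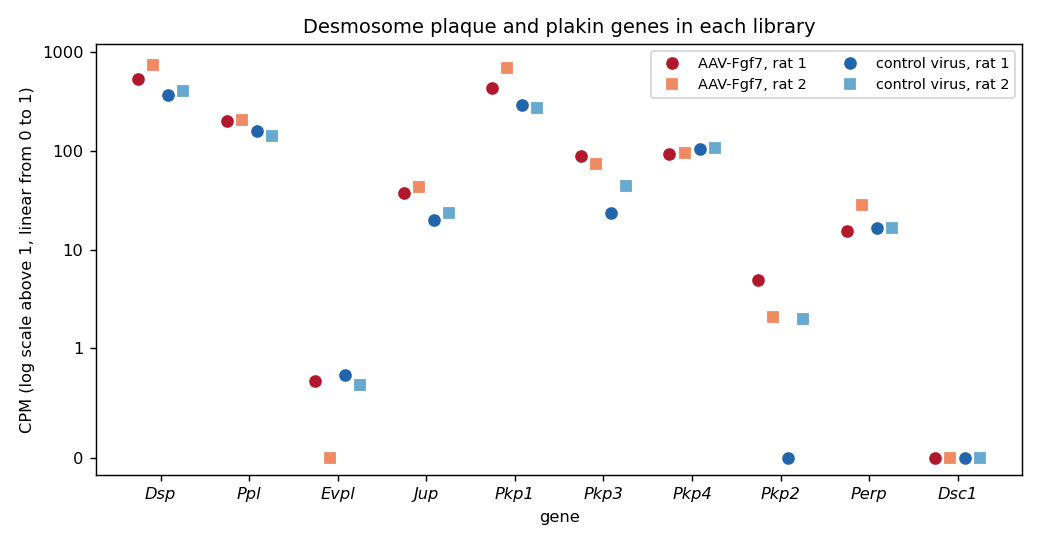
Points give the CPM of each of the 10 genes in each library, AAV-Fgf7 ears (reds) left of control ears (blues), circles for rat 1 and squares for rat 2. Dsp, Ppl, Jup, Pkp1 and Pkp3 have both red points above both blue points, as does Pkp2 by a narrow margin (3 raw counts in each ear of rat 2), and Dsc1 lies at 0 in all 4 libraries.

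Across all 10 members, 7 passed the low-count filter (Dsp, Jup, Pkp1, Pkp3, Pkp4, Ppl and Perp) and 3 did not (Pkp2, Evpl and Dsc1). Both AAV-Fgf7 libraries lay above both controls for 5 of the 7, against 14.8% of all 6370 tested genes. Both lay below both controls for 1 of the 7, Pkp4, against 13.3% of tested genes. Pkp2 also lay above both controls in CPM, but with 3 raw counts in each ear of rat 2. The median log2 fold change of the 7 was 0.72, against -0.02 over all tested genes. Leaving out the AAV-Fgf7 ear of rat 1 gave 0.93, and leaving out that of rat 2 gave 0.47. As the members were chosen with this contrast known, these counts are a description.

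By the quasi-likelihood test of edgeR, 0 of 6370 genes (0%) were called at an adjusted p under 0.05, and so 0 of the 7 members, each with an adjusted p of 0.9996. At an unadjusted p under 0.05 there were 4 members (Dsp, Jup, Pkp1 and Pkp3), all higher, against 1.71% of tested genes that were higher at that level. Without the AAV-Fgf7 ear of rat 1, the log2 fold changes of Dsp, Jup, Pkp1 and Pkp3 were 0.93, 0.99, 1.28 and 1.10. Without that of rat 2 they were 0.47, 0.79, 0.63 and 1.39. Both fits had a lone AAV-Fgf7 library, so only effect sizes are given for them. With rat as a replicate block, 3 members had an unadjusted p under 0.05, as Jup no longer passed, beside 75 of 6370 genes in either direction. At an unadjusted p under 0.05, DESeq2 gave 3 members, beside 84 of 6370 genes in either direction, and limma-voom gave 4, beside 131. Both tools called 0 members. The count over all genes became 59 without the control library of rat 1 and 40 without that of rat 2. Without the control of rat 2, edgeR called Pkp3 (log2 fold change 1.78, adjusted p = 0.0290), in a fit with a lone control library that was assumed to vary like the AAV-Fgf7 pair.

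**Figure D3:**
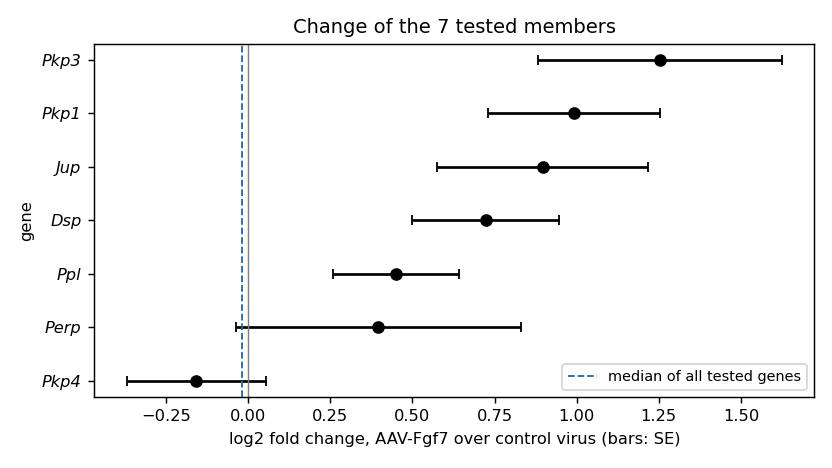
Points give the log2 fold change of AAV-Fgf7 over control ears for the 7 tested members and bars its SE, with a dashed line at the median of all tested genes. The values run from -0.16 for Pkp4 to 1.25 for Pkp3.

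In order of level per length, Pkp1 was first, at 52.5 to 133 FPKM over the 4 libraries, then Dsp at 36.9 to 74.6 FPKM and Ppl at 20.0 to 29.0 FPKM. The ranges of Pkp1 and Dsp overlapped, but within each library Pkp1 was higher, by 1.56 and 1.78 times in AAV-Fgf7 ears and 1.54 and 1.27 times in control ears. Pkp4 followed at 16.0 to 18.3 FPKM, and Pkp3, at 6.41 to 24.1 FPKM, overlapped with Ppl, Pkp4, Perp (7.79 to 14.3 FPKM) and, at its lowest, with Jup (3.02 to 6.54 FPKM). The ratio of desmoplakin to plakoglobin transcripts was 9.50 and 11.4 in AAV-Fgf7 ears and 12.2 and 11.6 in control ears, slightly lower in both AAV-Fgf7 ears. Pkp2 reached at most 0.902 FPKM and Evpl at most 0.117 FPKM.

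Basal keratinocyte markers (8 of 8 with a count) summed to 1914 and 3677 CPM in AAV-Fgf7 ears and 1244 and 1151 CPM in control ears. Of the 7 tested, 4 (Krt5, Krt14, Sfn and Trp63) had each AAV-Fgf7 ear above each control ear, against 14.8% of all tested genes. The list was chosen with earlier results of these data known, and Sfn (stratifin) is not specific to basal cells. The groups overlapped for the keratin gene Krt15 (330 and 486 CPM in AAV-Fgf7 ears, 380 and 242 CPM in control ears) and the integrin gene Itga6 (55.8 and 87.9 CPM in AAV-Fgf7 ears, 56.2 and 59.9 CPM in control ears). They overlapped also for Itgb4 and Col17a1. Suprabasal markers (4 of 7, with Krtdap, Sbsn and Lgals7 at 0) summed to 934 and 2731 CPM in AAV-Fgf7 ears and 1006 and 640 CPM in control ears. The members were set against Krt5 and Krt14, the keratin pair of the basal layer, within each library. Pkp1 stood at 15.6% and 10.4% of the summed Krt5 and Krt14 FPKM in AAV-Fgf7 ears and 17.05% and 16.9% in control ears. Dsp stood at 10.01% and 5.85% in AAV-Fgf7 ears and 11.04% and 13.3% in control ears. Relative to this pair, chosen after the values were seen, both genes were lower in both AAV-Fgf7 ears, with ratios of 0.914 and 0.907 in rat 1 and 0.616 and 0.440 in rat 2. The direction depended on the basal gene used. Krt5 and Krt14 had log2 fold changes of 1.41 and 1.54, against 0.39 for Krt15 and 0.31 for Itga6. Over Itga6, the FPKM ratio of Pkp1 was 13.92 and 13.90 in AAV-Fgf7 ears and 9.30 and 8.06 in control ears, and that of Dsp was 8.94 and 7.81 in AAV-Fgf7 ears and 6.02 and 6.33 in control ears. Over Krt15, Pkp1 was higher in both AAV-Fgf7 ears (0.461 and 0.492, against 0.269 and 0.390 in control ears), and Dsp overlapped (0.296 and 0.276, against 0.175 and 0.307).

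Against Krt5 and Krt14, Ppl, Perp and Pkp4 lay below both controls too. Krt5 and Krt14 were themselves higher in both AAV-Fgf7 ears, so a gene with little change falls against them. Pkp4, with a log2 fold change of -0.16, is such a gene. The share of all genes that lay below in this way was not computed, so these ratios are a description. The percentages of Ppl were 5.31 and 2.27 in AAV-Fgf7 ears and 6.68 and 6.44 in control ears. For Pkp3 and Jup the groups overlapped, with Pkp3 at 4.46% and 1.55% in AAV-Fgf7 ears and 1.92% and 3.84% in control ears. In the AAV-Fgf7 ear of rat 1 Pkp3 was 2.32 times its control share, and in that of rat 2 it was 0.403 times.

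**Figure D4:**
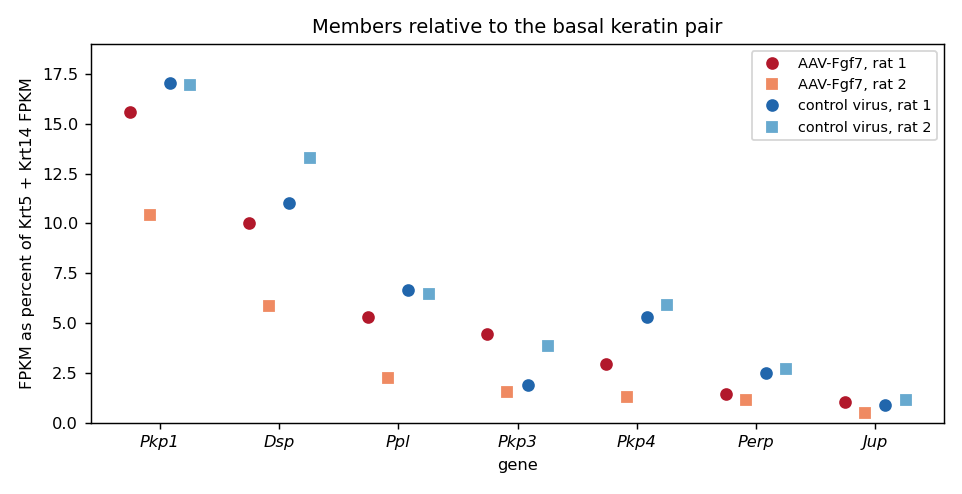
Points give the FPKM of each tested member as a percentage of the summed FPKM of Krt5 and Krt14 in the same library, AAV-Fgf7 ears left of control ears. Pkp1, Dsp, Ppl, Pkp4 and Perp have both AAV-Fgf7 points below both control points, with the ear of rat 2 lowest, whereas over Itga6 both Pkp1 and Dsp were higher in both AAV-Fgf7 ears. Krt5 and Krt14 themselves were higher in both AAV-Fgf7 ears.

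Among the other genes of the junction, the cadherins were barely counted. Of 8 further desmogleins and desmocollins, 5 had a count and 0 were tested, and Dsg1c, Dsg2 and Dsg3 were at 0. Their summed level was 20.5 and 18.7 CPM in AAV-Fgf7 ears and 6.83 and 7.32 CPM in control ears. The sums did not overlap, but they rest on few counts and on partly different genes. In the AAV-Fgf7 ear of rat 1 these were mostly Dsg4 and Dsg1a, in that of rat 2 Dsg1a and Dsg1b. Dsg1a, a desmoglein of differentiated epidermis, had raw counts of 10 and 15 in AAV-Fgf7 ears and 4 and 4 in control ears. Dsg4, a desmoglein of the hair follicle, had 14 and 1 in AAV-Fgf7 ears and 0 and 3 in control ears, high where hair follicle markers were high. Dsg1b had 1 and 6 against 1 and 1, Dsc3 had 3 and 4 against 2 and 3, and Dsc2 had 1 and 1 against 2 and 0. These 5 were named after their counts were seen.

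The other armadillo and plakin genes showed no common direction. Arvcf, a catenin of the p120 family that binds classical cadherins, stood at 28.2 and 25.6 CPM in AAV-Fgf7 ears and 9.87 and 9.98 CPM in control ears, a log2 fold change of 1.43 (SE 0.38). Its groups were well apart and its libraries close within each group. Ctnnb1 (beta-catenin) stood at 624 and 564 CPM in AAV-Fgf7 ears and 442 and 644 CPM in control ears, with overlap (log2 fold change 0.13, SE 0.24). Of this list of 4, 2 were tested, 0 passed and Ctnnd1 was at 0. Of 4 further plakins, 3 were tested, 0 passed and Eppk1 was at 0. Plec (plectin), Macf1 and Dst, plakins that link cytoskeletal filaments in many cell types, had log2 fold changes of 0.03 (SE 0.21), -0.02 (SE 0.23) and -0.01 (SE 0.36).

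Cornified envelope genes gave few counts. Of 12 listed, 11 matched a symbol, 7 had a count and 2 were tested, of which 0 passed. Tgm1, the transglutaminase that cross-links envoplakin and periplakin among other proteins, had a log2 fold change of -0.05 (SE 0.49), and Kazn (kazrin, a periplakin-binding protein) one of -0.26 (SE 0.48). Of 8 partners and regulators of desmosomes, 4 were tested and 0 passed. Trp63, which encodes p63, stood at 25.4 and 45.0 CPM in AAV-Fgf7 ears and 20.5 and 17.3 CPM in control ears (log2 fold change 0.90, SE 0.41). Ripk4, a kinase that phosphorylates PKP1, had a log2 fold change of 1.30 (SE 0.63) from raw counts of 14 and 16 in AAV-Fgf7 ears and 3 and 9 in control ears. Pnn (pinin), first described at desmosomes and also a nuclear splicing factor, had one of -0.22 (SE 0.24).

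Other cell types were read through their markers, whether or not they form desmosomes. Endothelial markers (7 of 8, Emcn at 0) summed to 132 and 128 CPM in AAV-Fgf7 ears and 135 and 172 CPM in control ears. Of 5 cardiac muscle markers 3 had a count, with Myl7 and Nppa at 0. They summed to 120 and 30.5 CPM in AAV-Fgf7 ears and 8.35 and 291 CPM in control ears. Almost all of it was Myh6 (112 and 24.9 CPM in AAV-Fgf7 ears, 7.59 and 288 CPM in control ears). Myh6 ranked the libraries in the same order as the skeletal muscle sum, and the source of the cardiac sum was not tested. Tnnt2, of few counts, stood at 7.77 and 5.54 CPM in AAV-Fgf7 ears and 0.76 and 2.66 CPM in control ears. Tnni3 had 1 raw count, in the control ear of rat 2. Sebaceous gland markers (7 of 7) summed to 399.7 and 356 CPM in AAV-Fgf7 ears and 267 and 612 CPM in control ears. Fibroblast markers (4 of 6, Dcn and Lum at 0) summed to 39857 and 27161 CPM in AAV-Fgf7 ears and 34099.8 and 39112 CPM in control ears. Cartilage markers (7 of 9, Matn1 and Cnmd at 0) summed to 698 and 376 CPM in AAV-Fgf7 ears and 386 and 1332 CPM in control ears. Their part in the members' values was not tested.

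The profiles nearest to that of Dsp were found by the distance between log2 CPM values (pseudocount 1) centred over the 4 libraries, among 5165 other protein-coding genes with a mean of at least 10 CPM. They belonged to Phyhip (distance 0.05), Fbxl19 (0.06), Pcdh18 (0.08), Xab2 (0.09) and Mapk13 (0.10). Of the members, Jup was nearest (0.26), with 33 of these genes nearer, then Pkp1 (0.34) with 71 nearer. Ppl and Perp followed at 0.47 and 0.48, and Pkp4 and Pkp3 were farthest, at 0.92 and 0.94. With 4 libraries many genes share a profile, and nearness says no more than that.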

How the data were processed

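RNA-seq of rat ear skin was read from 2 AAV-Fgf7 and 2 control virus libraries. The authors deposited raw counts per gene and FPKM values for the same genes. The submitters' processing notes name the genome build Rnor_6.0 (rn6), while the file headers and rows give mouse gene models, with no aligner or counter named (not given in the sources used here). Rows of processed pseudogenes held 7.51% to 8.93% of a library's counts. Both AAV-Fgf7 descriptions name the same column, so the other treated column, numbered 2, was taken as rat 2 from its title. Ear side was not used, as title and design text disagree.

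Counts were filtered (filterByExpr), scaled by TMM and tested with edgeR 4.0.16 in R 4.3.3 (quasi-likelihood, two-sided), with Benjamini-Hochberg adjustment over 6370 genes. DESeq2 1.42.0 and limma 3.58.1 were alternatives. SE is the log2 fold change over the root of F. The script was tested on simulated data. FPKM values were used per length and in limma with a pseudocount of 1 or 0.1. Rat numbers pair the ears of an animal; deviations of same-numbered libraries correlated at r = -0.29 across genes. With 2 libraries per group, a p-value sets a difference against the spread between these libraries, estimated with information shared across genes. The main fit did not pair the ears of a rat. An exact test cannot go below 0.33. Members and lists were chosen with earlier results of these data known, and ratios to Krt5 and Krt14 were added after the values were seen. Named genes were all members, Fgf7, up to 3 tested genes of lowest p per list and the 5 nearest to Dsp.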

Additional observations from a re-analysis of the deposited data

How the results depend on the processing

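Of 112 values of the 7 tested members under 16 alternatives, 110 kept their direction and stayed uncalled. With 1 library left out the log2 fold change of Perp ran from -0.10 (no AAV-Fgf7 ear of rat 2) to 0.76, and without the control library of rat 2 that of Pkp3 was called at 1.78. The median over the 7 ran from 0.47 to 0.93 when 1 library was left out, and from 0.69 to 0.77 otherwise. The count of genes called was 0 by edgeR, 3 without a low-count filter and 4 by DESeq2, and 0 to 59 when 1 library was left out (59 and 40 without the controls of rats 1 and 2). With rat as a replicate block it was 0 (75 genes at an unadjusted p under 0.05), the median was 0.71, no call changed, and Jup was no longer among the members at an unadjusted p under 0.05. The share of Pkp1 and Pkp3 was higher in the AAV-Fgf7 ear by 8.44 points within rat 1 and 12.6 points within rat 2. With the blocks crossed, chosen after seeing the data like the fit without ribosomal protein genes, 0 genes were called (301 unadjusted). Against Pkp2 alone, of few counts, the difference in share was -0.26 points. The mean log2 difference of Dsp and Pkp1 relative to Krt5 and Krt14 was -0.66 and -0.41. It was 0.31 and 0.55 over Krt15, and 0.44 and 0.68 over Itga6, alternatives chosen after seeing the data. Over all 10 members, untested ones included, 6 lay above and 1 below both controls. Over all genes the shares were computed for the 6370 tested ones only (14.8% above and 13.3% below). With 1 library left out, 6 to 7 lay above and 1 to 2 below the controls that remained. A comparison of 2 against 1 libraries separates more easily, and the share over all genes was not computed for it, so these counts are a description. The causes were not tested. Low counts limit Pkp2, Evpl, Dsc1 and the cadherins, and the parts of depth and of the mouse gene models in this were not tested.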
